A study of Mus musculus with 9 samples.

Results

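Cdc42 and 9 genes whose products bind it were followed through single-cell RNA sequencing of mouse bone marrow stem and progenitor cells. The 9 genes are the small effectors Cdc42se1 and Cdc42se2, the kinases Cdc42bpa, Cdc42bpb, Pak1 and Pak2, the Borg proteins Cdc42ep3 and Cdc42ep4, and the scaffold Iqgap1. Their rows were found by gene symbol, the list of symbols having been drawn up with earlier results of these data known, and they are 10 of the 31053 genes counted in each library. The cells were LSK cells (Lin- cKit+ Sca1+), the sorted fraction of bone marrow that holds the hematopoietic stem cells (HSCs) and multipotent progenitors. Each of 9 samples gave 1 library from C57BL/6 mice. The 3 young controls were 10 to 12 weeks old and the 3 aged controls were over 80 weeks old, and both control groups received the same amount of the vehicle, cyclodextrin. The 3 CASIN samples came from mice over 80 weeks old that received CASIN, an inhibitor of Cdc42 activity, at 25 mg/kg in cyclodextrin by 4 intraperitoneal injections at intervals of 24 h. All cells had been frozen and thawed before sequencing. The labels do not say how many mice went into a sample, so the p-values below measure the spread between samples, which may be technical. Sequencing batch 1 held 5 samples, aged replicate 1 with replicates 1 and 2 of both the young and the CASIN group, and the other 4 samples formed sequencing batch 2.

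Cdc42 is a small GTPase that switches between a GTP-bound form, which binds effectors, and a GDP-bound form, which does not. Exchange factors (GEFs) load it with GTP, GTPase activating proteins (GAPs) turn it off, and dissociation inhibitors (GDIs) hold it in the cytosol. The GTP-bound form organizes actin and the polarity of the cell through kinases, scaffolds and adaptor proteins, and CASIN lowers the amount of that form. The measurements below are of RNA and do not report how much of the protein is bound to GTP.

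The libraries held 19237354 to 42780953 unique molecular identifiers (UMIs, each standing for 1 captured RNA molecule), and 15856 of 32387 barcodes passed the filters, 1112 to 2417 per sample. Levels are given as CPM, the UMIs of a gene as a share of all UMIs of the same cells, on the usual counts-per-million scale. Since a molecule is counted once at its 3′ end, CPM needs no division by gene length. The batches differed: 73.8% of barcodes were kept in batch 1 and 34.4% in batch 2, and the median mitochondrial share of the kept cells was 2.65% to 3.49% in batch 1 and 5.03% to 7.0% in batch 2. Pairs of libraries shared 0 to 16 cell barcodes. Transcripts of the sorting markers were present in every sample, Kit at 112 to 225 CPM and Ly6a, which encodes Sca1, at 87.9 to 186 CPM. Markers of cells that the sort should have removed were at several levels. The 8 lymphocyte genes summed to 66.6 to 178 CPM, with Nkg7 alone at 126 CPM and 6 of them under 1 CPM on average. Nkg7 was also among the leading genes of 1183 cells that clustered together by expression, led by Ctsg and Mpo. The sum therefore does not mark lymphocytes alone. The 6 red cell genes summed to 1.35 to 6.49 CPM. The 6 genes of mature myeloid cells summed to 235 to 320.0 CPM in young, 288 to 598 CPM in aged and 229 to 287 CPM in CASIN samples, with Lyz2 alone at 241 CPM on average, and their part in the results below was not tested.

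Upstream sequence is shown for Cdc42, the target of CASIN, and for Cdc42bpb and Cdc42ep4, the members whose RNA differed most with age in the comparisons below. Each is the 250 bases before a start site of the gene in RefSeq (GRCm38.p6), 5′ to 3′ on the strand of the gene, and capitals mark GC boxes (GGGCGG on either strand). Cdc42 has its window at chr4:137357760-137358009 on the minus strand, with 2 GC boxes and a GC content of 45.2%. Cdc42bpb has its window at chr12:111377719-111377968 on the minus strand, with 3 GC boxes and 74.4%. Cdc42ep4 has its window at chr11:113751816-113752065 on the minus strand, with 0 GC boxes and 61.6%. The 3′ part of this window, up to position 113751881, lies inside the span of the gene given below. The median GC content over all 32851 windows of this length was 52.4%.
Cdc42: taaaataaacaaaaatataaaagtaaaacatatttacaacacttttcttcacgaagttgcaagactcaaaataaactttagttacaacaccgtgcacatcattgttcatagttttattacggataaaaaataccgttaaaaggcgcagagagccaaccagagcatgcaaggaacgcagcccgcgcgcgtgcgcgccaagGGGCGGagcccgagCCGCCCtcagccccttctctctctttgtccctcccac
Cdc42bpb: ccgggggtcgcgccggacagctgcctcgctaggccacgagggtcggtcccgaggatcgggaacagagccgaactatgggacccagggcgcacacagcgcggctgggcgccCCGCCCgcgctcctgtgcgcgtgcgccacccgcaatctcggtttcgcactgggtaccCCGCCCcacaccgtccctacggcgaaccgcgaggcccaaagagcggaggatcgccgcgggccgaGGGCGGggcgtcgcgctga
Cdc42ep4: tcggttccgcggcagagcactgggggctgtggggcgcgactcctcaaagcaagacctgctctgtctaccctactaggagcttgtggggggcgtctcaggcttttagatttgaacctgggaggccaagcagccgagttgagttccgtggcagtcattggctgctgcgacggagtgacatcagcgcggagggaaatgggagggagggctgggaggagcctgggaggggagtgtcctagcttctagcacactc
A window was found for 9 of the 10 members, all but Pak2. GC boxes stood in 32.7% of all windows, and both Cdc42 and Cdc42bpb had them. The other strings searched on both strands were CCAAT, found in 33.8% of all windows, TATAAA in 12.4%, CACGTG in 6.02%, CCGGAAG in 6.91% and TGACGTCA in 1.55%, and none of these strings contains another. The Cdc42 window held 1 TATAAA, the Cdc42ep4 window shown held 1 CCAAT, and the Cdc42bpb window held none of these other strings. A further Cdc42ep4 window, at another start site, held no GC box and none of the other strings.

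The first question was whether the RNA of the drug target itself moves with age or with CASIN. Cdc42 (ENSMUSG00000006699, chromosome 4, 137319696 to 137357720, minus strand, GRCm38) was measured at 376, 361 and 369 CPM in the young samples, 377, 394 and 399 CPM in the aged samples, and 357, 364 and 382 CPM in the CASIN samples, from 6259 to 13205 UMIs per sample. All 9 samples lay within 357 to 399 CPM, and the lowest aged sample was less than 1 CPM above the highest young one. The group means were 369 ± 7.36 CPM for young, 389.9 ± 11.6 CPM for aged and 367 ± 12.8 CPM for CASIN samples (SD, n = 3 each). On the log2 scale, aged samples differed from young by 0.07 ± 0.07 (SE, adjusted p = 0.57, edgeR's quasi-likelihood test with the batch as a term), with a 95% confidence interval of -0.08 to 0.22. CASIN samples differed from aged by -0.08 ± 0.07 (adjusted p = 0.99, edgeR), with an interval of -0.23 to 0.07, and from young by -0.01 ± 0.06 (adjusted p = 0.94, edgeR), with an interval of -0.16 to 0.13. The difference between CASIN and young changed sign under some of the other settings, as given under the dependence on processing.

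**Figure D1:**
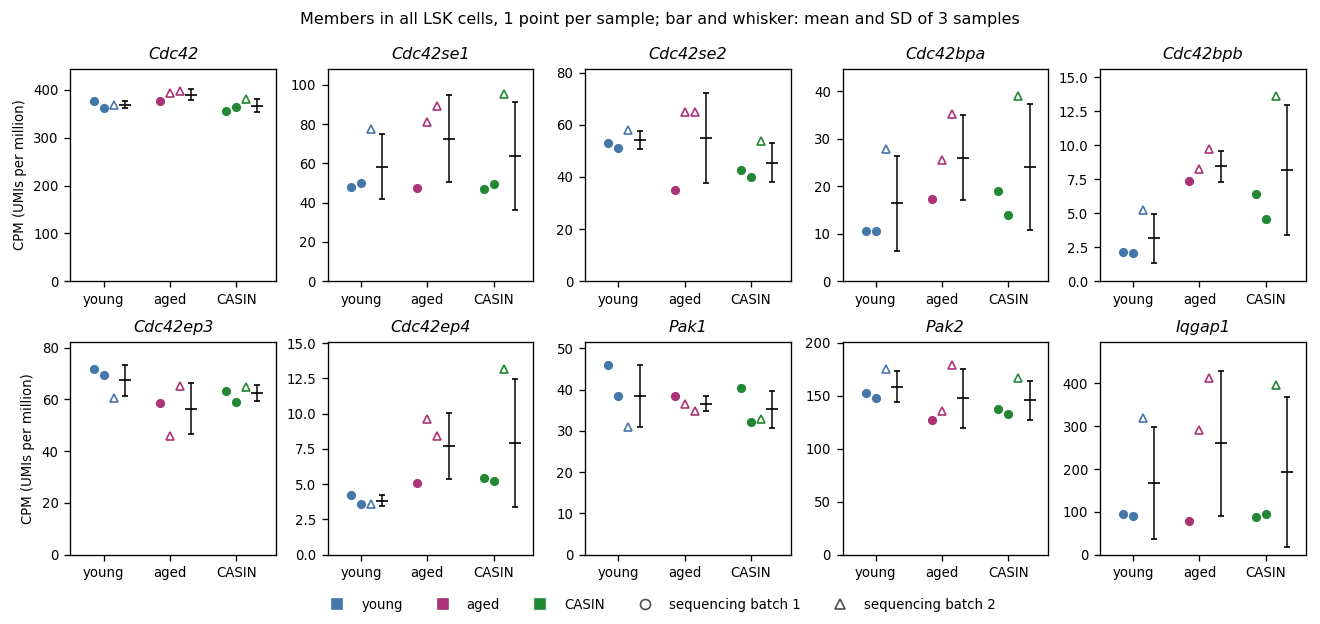
Level of each of the 10 genes in all LSK cells, in CPM on a linear axis from 0, with 1 point per sample, colours for young, aged and CASIN, marker shapes for the sequencing batch, and a bar with whiskers for the mean and SD of 3 samples. Cdc42 stayed within 357 to 399 CPM in all 9 samples, whereas the points of Iqgap1 split by batch, with 78.5 to 95.2 CPM in batch 1 and 291 to 413 CPM in batch 2.

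Across the 10 genes in all LSK cells, 1 gene passed the test between aged and young (adjusted p under 0.05, edgeR), 0 between CASIN and aged, and 1 between CASIN and young. Among the 13948 genes tested, 4.14% passed between aged and young, 0.0% between CASIN and aged and 4.5% between CASIN and young, so the share of members that passed was not far from that of all genes. At an unadjusted p under 0.05, edgeR counted 3, 0 and 3 members in the 3 comparisons, beside 21.9%, 3.24% and 23.6% of all genes tested. DESeq2 called 1, 0 and 2 members after adjustment, beside 1128, 1 and 1288 among all genes. The median log2 difference of the members was 0.03, 0.08 and 0.03, beside 0.02, 0.00126 and 0.01 over all genes tested. The comparisons of aged and of CASIN samples with young share the young samples, and those of CASIN and young with aged share the aged samples, so they are not independent of each other.

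The gene that passed was Cdc42bpb (ENSMUSG00000021279, chromosome 12, 111292976 to 111377718, minus strand), which encodes MRCKβ, a kinase that binds GTP-bound Cdc42 and phosphorylates the regulators of myosin. It stood at 2.14, 2.06 and 5.25 CPM in the young samples, at 7.40, 8.25 and 9.70 CPM in the aged samples and at 6.38, 4.58 and 13.6 CPM in the CASIN samples. All aged samples lay above all young ones, and within each batch every CASIN sample also lay above every young one. Cdc42bpb rose by 1.26 ± 0.25 (log2, SE) from young to aged, a fold of 2.39 (adjusted p = 0.029, edgeR). Relative to young samples it was higher with CASIN by 1.38 ± 0.25, a fold of 2.61 (adjusted p = 0.020, edgeR). Between CASIN and aged the difference was 0.13 ± 0.24 (adjusted p = 0.99, edgeR), with CASIN lower than aged in batch 1 and higher in batch 2. HSC-1-like cells had the highest mean of this gene among the 7 fitted classes (below). Their share was 11.5% to 20.9% in young, 22.2% to 31.8% in aged and 22.4% to 35.2% in CASIN samples. With the class makeup held the same in every sample the differences from young were 0.70 for aged (adjusted p = 0.031, limma) and 0.80 for CASIN (adjusted p = 0.011, limma). That fit used log2(CPM + 1), which makes differences smaller at such low levels, and only the cells of the 7 classes fitted below. Its values therefore cannot be set directly beside those of edgeR, and the part of class makeup in the rise was not tested. Over all LSK cells, fewer cells of a type and less RNA per cell cannot be told apart, and levels are therefore also given by class. The call between aged and young was lost without young replicate 1 (1.20), young replicate 2 (1.20), aged replicate 1 (0.79) or CASIN replicate 1 (1.25), and that between CASIN and young without young replicate 1 (1.32), young replicate 2 (1.32), CASIN replicate 1 (1.33) or CASIN replicate 3 (1.16). Both calls were also lost under other settings, among them no batch term and the replicate number in place of the batch. With only the 2 groups fitted the call between aged and young was lost as well.

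Its closest relative among the members, Cdc42bpa (ENSMUSG00000026490, chromosome 1, 179960472 to 180165603, plus strand), encodes the kinase MRCKα. It was measured at 10.6, 10.6 and 27.9 CPM in young samples, 17.3, 25.6 and 35.1 CPM in aged ones and 18.9, 13.9 and 39.0 CPM with CASIN. In batch 1 every aged and CASIN sample was above both young ones, while in batch 2 aged replicate 2 lay below young replicate 3. The log2 differences from young were 0.40 ± 0.17 for aged (adjusted p = 0.21, edgeR) and 0.57 ± 0.17 for CASIN (adjusted p = 0.087, edgeR), so it did not pass in all LSK cells. Coq8a, on the opposite strand, overlaps Cdc42bpa and had 4405 UMIs beside 4507 of Cdc42bpa. Whether the counting used the strand is not given in the sources used here, and reads of the 2 genes over the overlap cannot then be told apart.

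Pak1 (ENSMUSG00000030774, chromosome 7, 97788541 to 97912381, plus strand) and Pak2 (ENSMUSG00000022781, chromosome 16, 32016290 to 32079342, minus strand) encode p21-activated kinases, which GTP-bound Cdc42 and Rac release from autoinhibition. Pak1 stood at 46.0, 38.4 and 31.1 CPM in young samples, 38.5, 36.6 and 34.8 CPM in aged ones and 40.3, 32.3 and 33.0 CPM with CASIN, and the 3 groups overlapped. Pak2 was more abundant than Pak1 by CPM in every sample, at 152, 148 and 176 CPM in young samples, 127, 136 and 179 CPM in aged ones and 137, 133 and 166 CPM with CASIN. Its groups overlapped too. The log2 differences of both genes ranged from -0.19 to 0.06 over the 3 comparisons, and the smallest adjusted p was 0.33 (edgeR).

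Cdc42ep4 (ENSMUSG00000041598, chromosome 11, 113726850 to 113751881, minus strand) and Cdc42ep3 (ENSMUSG00000036533, chromosome 17, 79333727 to 79355091, minus strand) encode Borg proteins, which bind GTP-bound Cdc42 and septins. Cdc42ep4 was at 4.27, 3.62 and 3.61 CPM in young samples, 5.06, 9.61 and 8.40 CPM in aged ones and 5.41, 5.23 and 13.2 CPM with CASIN. Every aged and every CASIN sample lay above every young one. The log2 differences from young were 0.66 ± 0.28 for aged (adjusted p = 0.21, edgeR) and 0.89 ± 0.27 for CASIN (adjusted p = 0.093, edgeR), and neither passed over all LSK cells. Cdc42ep3 was more abundant, at 71.9, 69.4 and 60.7 CPM in young samples, 58.6, 45.8 and 65.1 CPM in aged ones and 63.4, 59.0 and 64.9 CPM with CASIN, with log2 differences from young of -0.22 ± 0.13 and -0.11 ± 0.13 that did not pass (adjusted p = 0.38 and 0.64, edgeR).

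The small effectors are short proteins with little more than a Cdc42-binding motif. Cdc42se1 (ENSMUSG00000046722, chromosome 3, 95228732 to 95236409, plus strand) was at 47.9, 49.8 and 77.4 CPM in young samples, 47.5, 81.1 and 89.1 CPM in aged ones and 46.8, 49.3 and 95.4 CPM with CASIN. The 5 samples of batch 1 lay within 46.8 to 49.8 CPM whatever their group. Cdc42se2 (ENSMUSG00000052298, chromosome 11, 54717456 to 54787675, minus strand) was at 53.1, 51.2 and 58.1 CPM in young samples, 34.9, 65.1 and 64.7 CPM in aged ones and 42.8, 39.8 and 53.9 CPM with CASIN, and within each batch every CASIN sample was below every young one. The log2 differences from young were 0.03 ± 0.10 and 0.08 ± 0.09 for Cdc42se1 and -0.17 ± 0.15 and -0.28 ± 0.14 for Cdc42se2, in aged and CASIN samples, with adjusted p from 0.26 to 0.91 (edgeR). Mllt11, which overlaps Cdc42se1 on the opposite strand, had 2362 UMIs beside 13589 of Cdc42se1.

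Iqgap1 (ENSMUSG00000030536, chromosome 7, 80711583 to 80825974, minus strand) encodes a scaffold that binds GTP-bound Cdc42 and links it to actin. It was at 95.2, 90.2 and 318 CPM in young samples, 78.5, 291 and 413 CPM in aged ones and 87.2, 95.2 and 395 CPM with CASIN. The 5 samples of batch 1 lay within 78.5 to 95.2 CPM and the 4 of batch 2 within 291 to 413 CPM, whatever their group. With the batch as a term, the log2 differences were -0.05 ± 0.15 from young to aged, 0.14 ± 0.14 from aged to CASIN and 0.08 ± 0.14 from young to CASIN (adjusted p = 0.87, 0.99 and 0.77, edgeR).

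**Figure D2:**
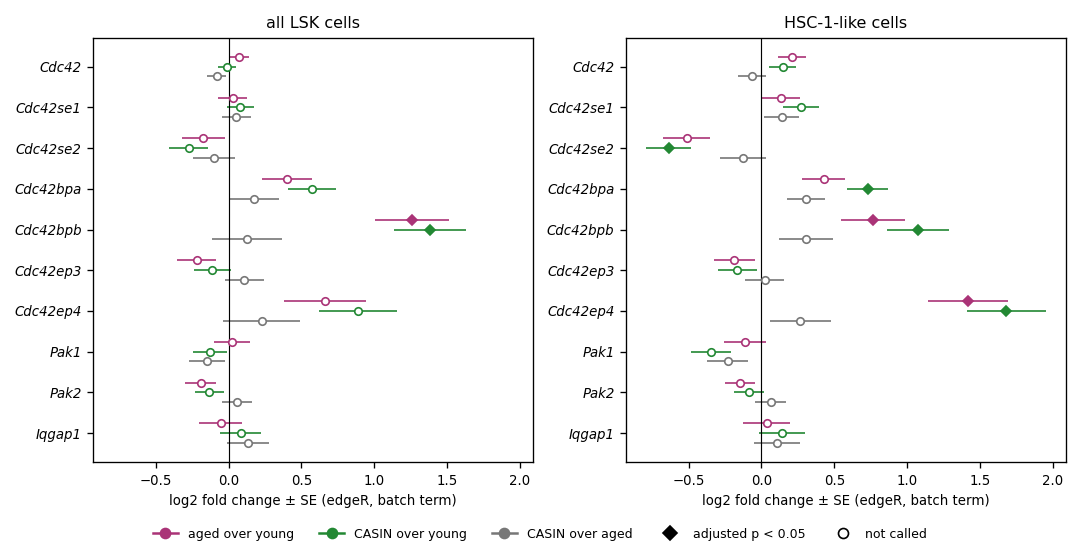
Log2 fold change with its SE for each gene between aged and young, CASIN and young, and CASIN and aged samples, in all LSK cells (left) and in HSC-1-like cells (right), where diamonds mark an adjusted p under 0.05 (edgeR). Cdc42bpb is marked in both panels, at 1.26 and 1.38 over young in all LSK cells, and the grey points of CASIN over aged lie near 0 in both.

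The batch moved more members than the condition did. Between batch 2 and batch 1, 7 of 10 members passed the test in all LSK cells (edgeR), and all 7 were higher in batch 2. Over all genes 71.0% passed, and 36.2% were called higher in batch 2, so the members' count of calls matched the background while their direction was one-sided. Iqgap1 was higher by 2.02 ± 0.12 on the log2 scale, a fold of 4.04, followed by Cdc42bpa (1.15 ± 0.14), Cdc42bpb (0.95 ± 0.20), Cdc42se1 (0.83 ± 0.08), Cdc42ep4 (0.73 ± 0.23), Cdc42se2 (0.47 ± 0.12) and Pak2 (0.27 ± 0.09). Cdc42 (0.05 ± 0.06), Cdc42ep3 (-0.07 ± 0.11) and Pak1 (-0.23 ± 0.10) did not pass, with adjusted p of 0.47, 0.57 and 0.067 (edgeR). The mitochondrial share and the share of barcodes kept differed between the batches as given above. The summed level of 16 genes that respond to handling of cells, such as Fos, Jun and Hspa1a, was 5360 to 10053 CPM in batch 1 and 1988 to 5671 CPM in batch 2. Their part in the batch difference was not tested. Without CASIN replicate 1 or CASIN replicate 3, Cdc42ep4 and Pak2 were no longer called between the batches, and Pak2 was lost without aged replicate 1 as well, which left 5 to 8 called members over the 9 samples left out.

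**Figure D3:**
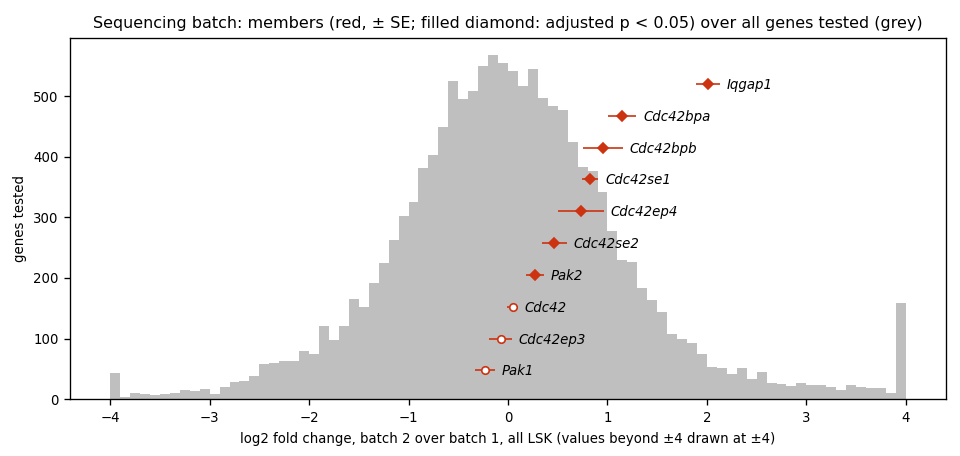
Distribution of the log2 fold change between sequencing batch 2 and batch 1 over the genes tested in all LSK cells (grey bars, number of genes), with the 10 genes drawn at their own value and SE in red, filled diamonds for an adjusted p under 0.05 and values beyond 4 on either side drawn at 4. The 7 filled points lie between 0.27 and 2.02, all on the side of batch 2, and Cdc42, Cdc42ep3 and Pak1 lie near or below 0.

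To separate levels from cell makeup, the cells were clustered without the 10 members among the genes used, and clusters were named from markers of LSK subsets. A name ends in "like" because it rests on those markers. Of 11 named classes, 7 had at least 20 cells in every sample: HSC-1-like cells, a merger of a cluster of 1993 cells led by Nupr1 and Meg3 and one of 1579 cells led by Tm4sf1 and Ramp2, HSC-2-like cells led by Fosb and Fos, HSC-3-like cells led by Cd74 and H2-Aa, MPP2-like cells led by Pf4 and Itga2b, MPP3-like cells led by Gal and Rgs1, lymphoid-primed LMPP-like cells led by Wfdc17 and Ccl3, and CC-1-like cells in S phase, a merger of a cluster of 1106 cells led by histone genes and one of 529 led by Pclaf and Rrm2. An unnamed cluster of 725 cells, led by Cox6a2 and Dntt, scored higher on the LMPP markers than LMPP-like cells (1.75 beside 1.45, mean log2 fold). Lymphoid-primed cells therefore lie in part outside the LMPP-like class. The levels across classes are given as a description, with no test, since the classes come from the same cells.

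Cdc42 differed little among these 7 classes, while a smaller class that was not fitted had a higher level (below). Its mean over 9 samples was 396 CPM in MPP3-like, 379.6 in LMPP-like, 373 in HSC-2-like, 370.4 in HSC-1-like, 361 in HSC-3-like, 358 in MPP2-like and 350.1 in CC-1-like cells, a ratio of 1.13 from the first to the last. Neighbours in this order overlapped, each class being above the next in 4 to 7 of 9 samples, while MPP3-like was above CC-1-like in 9 of 9. Pak2 had a like spread, with a ratio of 1.14 between its highest and lowest class. The order of Iqgap1 depended on the batch: HSC-1-like cells had the lowest mean in batch 1, at 70.0 CPM beside 99.3 CPM in LMPP-like cells, and the highest in batch 2, at 376 CPM beside 289 CPM in CC-1-like cells.

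The 2 MRCK kinases had another order, with the highest mean in HSC-1-like cells. Both were above HSC-2-like cells in only 6 of 9 samples. In batch 1 the means of HSC-1-like and HSC-2-like cells were close, at 8.64 and 8.46 CPM for Cdc42bpb and 23.9 and 22.7 CPM for Cdc42bpa. Cdc42bpb averaged 13.8 CPM in HSC-1-like, 9.25 in HSC-2-like, 8.85 in MPP2-like, 8.65 in HSC-3-like, 5.51 in MPP3-like, 2.53 in CC-1-like and 2.07 in LMPP-like cells, a ratio of 6.64, with HSC-1-like above LMPP-like, CC-1-like and MPP3-like in 9 of 9 samples. The classes from HSC-2-like to HSC-3-like did not differ beyond their spread over samples. Cdc42bpa went from 34.6 CPM in HSC-1-like to 11.2 CPM in LMPP-like cells, a ratio of 3.09, again in 9 of 9 samples. Cdc42ep4 went from 10.8 CPM in HSC-1-like to 3.71 CPM in CC-1-like cells, a ratio of 2.91, in 7 of 9 samples, but HSC-1-like cells were above HSC-2-like in only 5 of 9 samples and above MPP2-like in 4 of 9. In batch 1 the mean of Cdc42ep4 was 7.62 CPM in MPP2-like and 5.68 CPM in HSC-1-like cells, so its first 3 classes have no firm order. Some cells outside the 7 classes had Cdc42ep4, Cdc42bpa or Cdc42bpb about as high as HSC-1-like cells, or higher (below). Cdc42se2 ran the other way. It was highest in LMPP-like cells at 67.4 CPM, above each other class in 7 to 9 of 9 samples, and lowest in HSC-1-like cells at 40.4 CPM, a ratio of 1.67.

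**Figure D4:**
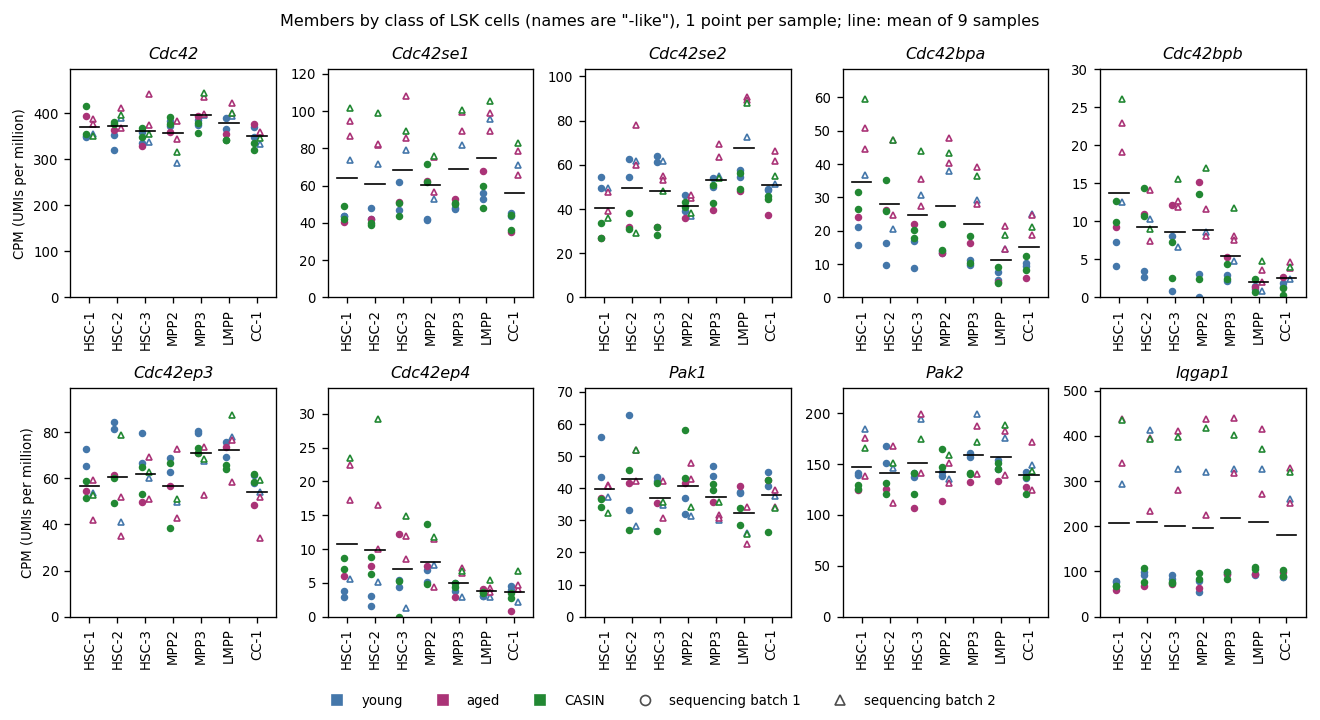
Level of each gene in CPM (linear axis from 0) in 7 classes of LSK cells, 1 point per sample with colours for the group and marker shapes for the batch, and a line for the mean of 9 samples. Cdc42bpb went from a mean of 13.8 CPM in HSC-1-like to 2.07 CPM in LMPP-like cells, Cdc42se2 ran from 40.4 to 67.4 CPM over the same classes, and Cdc42 stayed within means of 350.1 to 396 CPM.

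Within classes, each of the 7 was tested on its own UMI sums. Of 70 pairs of a member and a class, 69 could be tested, since Cdc42ep4 had too few UMIs in MPP2-like cells. Between aged and young, 3 pairs passed (edgeR), beside 2.91% of all gene and class pairs. Between CASIN and aged 0 pairs passed, beside 0.0% of all pairs, with 0 called by DESeq2. At an unadjusted p under 0.05 there were 2 pairs (edgeR), beside 5.09% of all pairs. Between CASIN and young 8 pairs passed, beside 4.06% of all pairs. All of these calls lay in the 3 HSC-like classes, none in the MPP2-like, MPP3-like, LMPP-like or CC-1-like cells. A call in one class and not in another does not show that the classes differ. Calls over all genes lay mostly in the same 3 classes. Between aged and young these held 1129, 497 and 180 of 2079 calls, beside 88, 124, 25 and 36 in the other classes in the order named. Between CASIN and young they held 1744, 766 and 218 of 2904, beside 71, 60, 9 and 36. The place of the calls is thus not particular to the members. By DESeq2 the counts of member and class pairs were 1, 0 and 5, beside 1266, 28 and 1851 of all gene and class pairs.

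HSC-1-like cells held most of the calls. Between aged and young 2 of 10 members passed there, beside 9.71% of the 11623 genes tested in this class, and between CASIN and young 4 of 10, beside 15.0%. Cdc42ep4 in HSC-1-like cells was at 2.86, 3.77 and 5.63 CPM in young samples, 6.05, 22.4 and 17.2 CPM in aged ones and 8.61, 7.12 and 23.5 CPM with CASIN. Every aged and CASIN sample was above every young one. It was higher in aged cells by 1.42 ± 0.28 on the log2 scale, a fold of 2.67 (adjusted p = 0.0047, edgeR), and in CASIN cells by 1.68 ± 0.27, a fold of 3.21 (adjusted p = 0.00075, edgeR). Within batches the log2 ratio of aged to young was 0.87 in batch 1 and 1.81 in batch 2. The counts behind these values were small, from 9 to 186 UMIs per sample. The call for aged was lost without young replicate 3 (0.96, adjusted p = 0.11, edgeR).

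Cdc42bpb in the same cells was at 4.13, 7.23 and 12.6 CPM in young samples, 9.27, 19.2 and 22.9 CPM in aged ones and 12.7, 9.91 and 26.0 CPM with CASIN. The groups overlapped across batches, since young replicate 3 was above aged replicate 1, but within each batch all aged and CASIN samples were above the young. It was higher in aged cells by 0.77 ± 0.22 (fold 1.70, adjusted p = 0.039, edgeR) and in CASIN cells by 1.07 ± 0.21 (fold 2.10, adjusted p = 0.0033, edgeR). The aged call did not pass with DESeq2 (0.77, adjusted p = 0.14), nor without any 1 of young replicate 1 (0.63), young replicate 3 (0.73), aged replicate 1 (0.74), aged replicate 3 (0.71), CASIN replicate 1 (0.76) or CASIN replicate 3 (0.78). The CASIN call held with each of the 9 samples left out.

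Cdc42bpa in HSC-1-like cells was at 15.9, 21.1 and 36.8 CPM in young samples, 24.2, 44.5 and 50.9 CPM in aged ones and 31.8, 26.4 and 59.6 CPM with CASIN. It was higher in CASIN than in young cells by 0.73 ± 0.14 (fold 1.66, adjusted p = 0.0028, edgeR), a call that held with each of the 9 samples left out, and its difference between aged and young was 0.43 ± 0.15 (adjusted p = 0.082, edgeR). Cdc42se2 was lower in CASIN than in young HSC-1-like cells, with 54.6, 49.7 and 49.7 CPM in young samples, 26.9, 39.3 and 47.7 CPM in aged ones and 33.6, 26.7 and 35.7 CPM with CASIN. All CASIN and aged samples were below all young ones. The log2 difference was -0.64 ± 0.15 for CASIN (1.56-fold lower, adjusted p = 0.012, edgeR) and -0.51 ± 0.16 for aged (adjusted p = 0.060, edgeR). The CASIN call was lost without young replicate 1 (-0.56), CASIN replicate 2 (-0.56) or CASIN replicate 3 (-0.64). Cdc42 itself in these cells was at 350.1, 348 and 355 CPM in young samples, 395, 387 and 377 CPM in aged ones and 356, 416 and 351 CPM with CASIN. The aged samples were all above the young, by a log2 difference of 0.21 ± 0.10 that did not pass (adjusted p = 0.20, edgeR). Between CASIN and aged the largest log2 difference of a member in size was 0.31 ± 0.18, for Cdc42bpb, and the adjusted p of all 10 was above 0.99 (edgeR).

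The mix of the 2 clusters merged as HSC-1-like differed between samples. The cluster led by Tm4sf1 and Ramp2 made up 35.9% to 39.3% of HSC-1-like cells in young samples, 32.3% to 51% in aged ones and 46.6% to 56.2% with CASIN, and its part in the results of the class was not tested. Levels in each cluster are given without a test. Cdc42ep4 in the cluster led by Nupr1 and Meg3 was at 1.95 to 2.94 CPM in young, 5.83 to 15.2 CPM in aged and 6.78 to 16.5 CPM in CASIN samples. In the cluster led by Tm4sf1 and Ramp2 it was at 2.71 to 13.4 CPM, 6.53 to 30.1 CPM and 7.18 to 31.8 CPM in the same order of groups, and within each batch the aged and CASIN samples were above the young in both clusters. Cdc42bpb was also above the young samples of its batch in every aged and CASIN sample of the cluster led by Nupr1 and Meg3. In the cluster led by Tm4sf1 and Ramp2 it was not, with CASIN replicate 2 at 11.2 CPM beside young replicate 2 at 12.7 CPM. The UMIs behind these 2 genes were few, from 3 to 120 per sample and cluster.

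HSC-2-like cells are led by immediate early genes, and batch 2 gave only 30 to 52 of them per sample. There 1 member passed between aged and young, beside 4.83% of genes, and 3 between CASIN and young, beside 7.44%. Cdc42bpa was at 16.2, 9.78 and 20.5 CPM in young samples, 26.4, 24.9 and 47.2 CPM in aged ones and 35.1, 25.9 and 47.3 CPM with CASIN, with all aged and CASIN samples above all young ones. It was higher by 1.02 ± 0.29 in aged cells (adjusted p = 0.0496, edgeR) and by 1.25 ± 0.27 in CASIN cells (adjusted p = 0.0077, edgeR). Cdc42ep4 was higher in CASIN cells by 1.93 ± 0.48 (adjusted p = 0.020, edgeR) from 2 to 19 UMIs per sample, and Cdc42bpb by 1.66 ± 0.45 (adjusted p = 0.030, edgeR) from 3 to 28 UMIs per sample. Within batch 2 Cdc42bpb was not higher in CASIN, at 9.01 CPM beside 10.3 CPM in young. With DESeq2 neither Cdc42ep4 nor Cdc42bpb passed in CASIN cells (adjusted p = 0.065 and 0.19), nor did Cdc42bpa in aged cells (adjusted p = 0.32). Each of these calls was lost in some of the fits with 1 sample left out. The aged call of Cdc42bpa was kept only without young replicate 3 and without aged replicate 2, with values of 0.81 to 1.26 over all 9 samples left out. The CASIN call of Cdc42bpa was lost without young replicate 2 (1.04) or CASIN replicate 1 (1.11). That of Cdc42bpb was lost without young replicate 1 (1.48), young replicate 2 (1.38), CASIN replicate 1 (1.37) or CASIN replicate 2 (1.74), and that of Cdc42ep4 without young replicate 1 (2.29), young replicate 2 (1.75), CASIN replicate 2 (1.92) or CASIN replicate 3 (1.64).

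In HSC-3-like cells, which express MHC class II genes, 0 members passed between aged and young (edgeR), beside 2.02% of genes, and 0 by DESeq2. At an unadjusted p under 0.05 there was 1 member (edgeR), beside 13.4% of genes. Between CASIN and young 1 passed, beside 2.44%. It was Cdc42se2, at 63.8, 61.1 and 61.6 CPM in young samples, 31.6, 55.1 and 52.9 CPM in aged ones and 28.2, 31.7 and 48.0 CPM with CASIN. All CASIN samples were below all young ones, by a log2 difference of -0.76 ± 0.20 (1.70-fold lower, adjusted p = 0.044, edgeR), and DESeq2 did not call it (adjusted p = 0.35). The edgeR call was lost without young replicate 1 (-0.69), young replicate 2 (-0.70), aged replicate 3 (-0.76), CASIN replicate 1 (-0.68), CASIN replicate 2 (-0.75) or CASIN replicate 3 (-0.91).

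Whether the change in HSC-1-like cells differed from that in progenitors was tested directly. For each sample, the log2(CPM + 1) in HSC-1-like cells less the mean of the MPP3-like and LMPP-like values was compared between groups with limma and the batch as a term. This comparison was added after the class values had been seen. Between CASIN and young 2 of the 10 members passed, beside 1.66% of the 10103 genes tested, and between aged and young and between CASIN and aged 0 passed, beside 0.0% and 0.0% of all genes. For Cdc42ep4 the per-sample difference was -0.38, 0.07 and 0.73 in young, 0.67, 1.91 and 1.53 in aged and 0.96, 0.66 and 1.83 in CASIN samples. It was larger in CASIN than in young samples by 1.01 ± 0.18 (adjusted p = 0.044, limma) and in aged than in young by 0.90 ± 0.19 (adjusted p = 0.14, limma). In MPP3-like cells this gene stood at 2.96 to 5.05 CPM in young and 2.94 to 7.27 CPM in aged samples, and in LMPP-like cells at 2.89 to 3.12 and 3.64 to 4.19 CPM. Its ratio of CASIN to young in MPP3-like cells was 1.04 in batch 1 and 2.27 in batch 2. In the same order it was 1.15 and 1.89 in LMPP-like and 2.37 and 4.17 in HSC-1-like cells. In batch 2 the young and CASIN groups are 1 library each. For Cdc42se2 the difference was 0.02, -0.15 and -0.36 in young, -0.67, -0.93 and -0.74 in aged and -0.63, -0.76 and -0.89 in CASIN samples, so that both older groups lay apart from the young. It was lower in CASIN than in young samples (-0.59 ± 0.11 on the log2 scale, adjusted p = 0.044, limma), and the difference between aged and young was -0.54 ± 0.11 (adjusted p = 0.14, limma). The call of Cdc42ep4 was lost with each of the 9 samples left out (0.90 to 1.15, adjusted p from 0.052 to 0.16, limma), and that of Cdc42se2 with each but aged replicate 3 (-0.63 to -0.53, adjusted p from 0.049 to 0.16, limma). For Cdc42bpb, which was called in HSC-1-like cells and not in progenitors, the difference between CASIN and young was 0.39 ± 0.30 (adjusted p = 0.57, limma), so a difference between the classes was not shown.

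**Figure D5:**
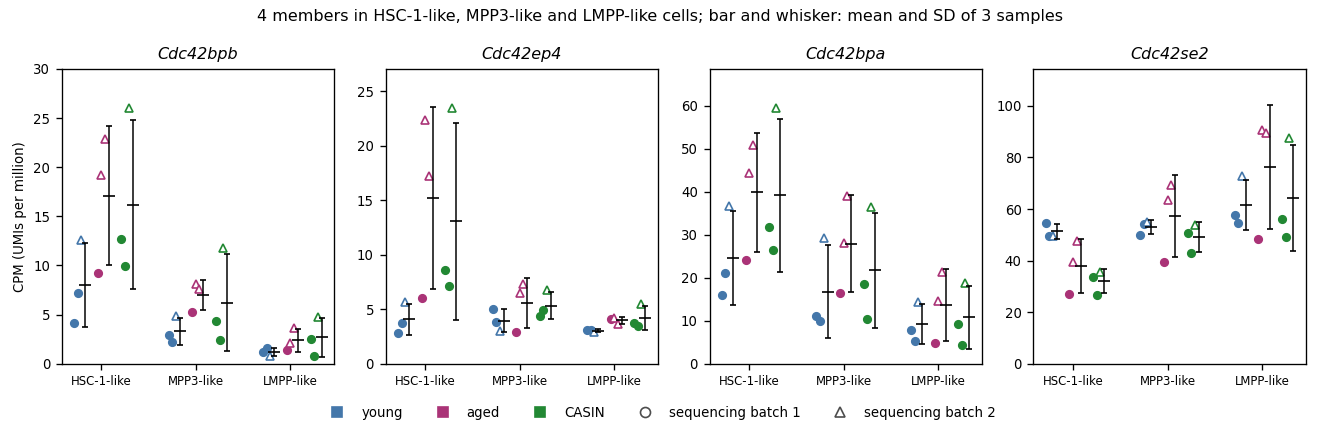
Level in CPM (linear axis from 0) of Cdc42bpb, Cdc42ep4, Cdc42bpa and Cdc42se2 in HSC-1-like, MPP3-like and LMPP-like cells, 1 point per sample, with the mean and SD of 3 samples beside each group. In LMPP-like cells Cdc42ep4 stayed within 2.89 to 5.46 CPM in all 9 samples, with every aged and every CASIN sample above every young one. In HSC-1-like cells it ran from 2.86 to 5.63 CPM in young and from 6.05 to 22.4 CPM in aged samples.

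The spread between cells was measured in HSC-1-like cells, with 246 cells per sample thinned to 4000 UMIs each. The measure was the Fano factor, the variance of a gene's UMIs over its mean, as its log2 residual from the trend with the mean. Of the 10 members 5 were abundant enough to test: Cdc42, Cdc42se1, Cdc42ep3, Pak2 and Iqgap1. The Fano factor of Cdc42 was 0.979 to 1.14 in young, 1.04 to 1.09 in aged and 1.04 to 1.05 in CASIN samples, near the value of 1 that counting alone gives. That of Iqgap1 was 0.997 to 1.40 over the 9 samples. Between aged and young 0 of the 5 passed, beside 0.111% of the 2699 genes tested, and between CASIN and aged and between CASIN and young 0 passed, beside 0.0% and 0.0% (limma). No member was under an unadjusted p of 0.05 in any of the 3 comparisons (0, 0 and 0 by limma), the log2 differences of the residual ranged from -0.07 to 0.06, and no other tool was run for this measure.

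The rest of the pathway was followed in 5 lists of 121 genes, of which 118 were tested in all LSK cells, and 4 of the lists are described below. Between aged and young 6 passed, 5 higher and 1 lower, between CASIN and aged 0 (3 at an unadjusted p under 0.05 by edgeR, 0 called by DESeq2), and between CASIN and young 8, 7 higher and 1 lower. These are 5.08% and 6.78% of the list genes tested, beside the 4.14% and 4.5% of all genes. Between CASIN and aged, 3.24% of all genes were under the unadjusted p of 0.05 (edgeR). The list genes are given over all LSK cells only, and the part of class makeup in their differences was not tested. Of the 25 exchange factors, 2 were higher in aged than in young samples, with a median log2 difference of 0.09 over the list. Dock9 went from 5.35 to 6.10 CPM in young to 9.12 to 12.9 CPM in aged and 10.6 to 14.0 CPM in CASIN samples, and Dock6 from 1.43 to 2.32 CPM to 3.70 to 4.06 CPM and 4.10 to 8.13 CPM. Their log2 differences were 0.96 ± 0.15 and 0.98 ± 0.22 for aged (adjusted p = 0.015 and 0.042, edgeR) and 1.11 ± 0.15 and 1.61 ± 0.21 for CASIN (both adjusted p = 0.0085, edgeR). Dock9 encodes an exchange factor for Cdc42 and Dock6 one for Cdc42 and Rac1.

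Of the 19 GAPs and GDIs 0 passed between aged and young (edgeR), with 1 called by DESeq2 and a median of -0.03. At an unadjusted p under 0.05 there were 7 (edgeR), beside 21.9% of all genes. Arhgap31, a GAP for Cdc42 and Rac1, was higher in CASIN than in young samples, at 66.0 to 79.1 CPM beside 40.0 to 55.1 CPM (0.65 ± 0.14, adjusted p = 0.033, edgeR). The aged samples, at 58.7 to 71.3 CPM, were also all above the young ones and overlapped those with CASIN. A list of 8 stromal and endothelial genes summed to 53.4 to 68.8 CPM in young samples, 41.3 to 49.9 CPM in aged ones and 49.0 to 71.4 CPM with CASIN, with 2 of the 8 under 1 CPM.

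Of the 28 tested genes of other Cdc42 effectors and the polarity complex, 2 were higher in aged than in young samples. Cdc42ep5, a further Borg protein, was at 0.0854 to 0.847 CPM in young samples, 2.51 to 4.68 CPM in aged ones and 3.53 to 5.40 CPM with CASIN (3.06 ± 0.54 for aged, adjusted p = 0.020, and 3.26 ± 0.53 for CASIN, adjusted p = 0.015, edgeR). Tnk2, a tyrosine kinase that binds GTP-bound Cdc42, was at 0.740 to 1.58 CPM in young samples, 2.41 to 4.36 CPM in aged ones and 2.73 to 2.82 CPM with CASIN (1.63 ± 0.35, adjusted p = 0.035, and 1.46 ± 0.35, adjusted p = 0.048, edgeR). The young samples held only 3, 16 and 15 UMIs of Cdc42ep5 and 26, 26 and 28 of Tnk2, so the differences of both rest on low counts. Git1, a partner of the PAK-binding exchange factors, was higher with CASIN than in young samples by 0.48 ± 0.11 (adjusted p = 0.040, edgeR) with levels that split by batch. They were 9.74, 10.2 and 32.8 CPM in young samples, 14.3, 38.1 and 46.9 CPM in aged ones and 14.4, 12.9 and 47.8 CPM with CASIN. Of the 30 actin and myosin genes 0 passed between aged and young (edgeR), with 3 by DESeq2. At an unadjusted p under 0.05 there were 6 (edgeR), beside 21.9% of all genes. Rock1, a kinase that activates myosin, was lower in CASIN than in young samples (-0.36 ± 0.08 on the log2 scale, adjusted p = 0.043, edgeR). Its levels split by batch too, at 125, 124 and 279 CPM in young samples, 94.4, 218 and 246 CPM in aged ones and 104, 89.5 and 223 CPM with CASIN. No list gene was called between aged and young or between CASIN and young without young replicate 1 (0 and 0) or without young replicate 2 (0 and 0), and the 2 counts were 1 and 20 without aged replicate 1, 10 and 21 without young replicate 3, 3 and 3 without CASIN replicate 1, 4 and 4 without CASIN replicate 2 and 6 and 3 without CASIN replicate 3. The share of all genes called in the same fits is not given beside these counts, so they do not single out the list genes. The log2 differences of the called genes kept their sign with each of the 9 samples left out.

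Between the batches 84 of the 118 list genes passed, 63 higher and 21 lower in batch 2, which is 71.2% beside the 71.0% of all genes. Among the largest differences were those of the exchange factor Fgd6 (3.36 ± 0.26 on the log2 scale) and of Fgd3 (2.46 ± 0.16), also an exchange factor, while the polarity gene Pard6b was lower in batch 2 (-2.12 ± 0.29). The list genes thus split by batch as often as genes in general.

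Over 11 named classes, the genes whose level followed that of Cdc42 most closely among 2767 genes of at least 50 CPM were Psap (Pearson r = 0.98 across classes), Gpsm3 (0.97), Igkc (0.96), Lyz2 (0.95) and Chmp2a (0.95), where the median gene had -0.10. These are values across classes that share libraries, given as a description. The pattern is mainly that of 1 class: Cdc42 on the log2 CPM scale was 9.33 in MP-2-like cells, a class of 92 cells led by Ly6c2 and Lgals3, and 8.45 to 8.63 in the other 10. Psap, the precursor of lysosomal activator proteins, and Lyz2, the lysozyme of myeloid cells, were highest in the same class, at 10.2 and 10.6. Of the members, Iqgap1 followed Cdc42 with r = 0.87, Cdc42se2 with 0.55 and Cdc42se1 with 0.42, while Pak2 had -0.08 and Cdc42ep3 -0.76. The 4 members under 50 CPM were not compared in this way.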

How the data were processed

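Single-cell 3′ RNA-seq of LSK cells was analysed in 9 samples. The authors aligned the reads to mm10 with Cell Ranger 3.1.0 and deposited raw counts, whole UMIs per gene and barcode, with no normalization. Cells were kept by the study's stated limits: at most 10% mitochondrial UMIs, 1000 to 40000 UMIs, at most 6000 genes and a residual of genes on UMIs of at most 0.4, with genes seen in at least 3 cells. Scrublet marked 71 cells (0.448%), and no doublets were removed. Whether it missed doublets was not tested. Cells were integrated (3000 features) and clustered at resolution 0.8 with Seurat 5.3.0, leaving out the 10 members, and clusters were named from LSK subset markers. Named classes with at least 20 cells in every sample were fitted.

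UMIs were summed per sample and class and tested with edgeR 4.0.16 (quasi-likelihood, TMM, filterByExpr, group and sequencing batch as terms, R 4.3.3), with Benjamini-Hochberg adjustment over all genes and a threshold of 0.05. DESeq2 1.42.0 was an alternative. limma 3.58.1 tested log2(CPM + 1), Fano residuals and the fit with fixed class makeup. The code was checked on simulated data. In a simulated comparison of aged with young in all LSK cells, edgeR recovered 60% of genes set at a log2 difference of 1. It recovered 10% of those set at 0.5, and 10.3% of its calls were false. In simulated Fano factors limma recovered 100% of 2-fold and 24% of 1.25-fold changes, with 2.36% of calls false. For the difference between HSC-1-like cells and progenitors it recovered 85% of log2 shifts of 2 and 38% of shifts of 1, with 4.65% false. Smaller changes of either kind could thus be missed. Totals of 17555578 to 35118707 UMIs per sample in kept cells set the precision; intervals of pooled levels cover counting error only. The members and gene lists were chosen with earlier results of these data known. All 10 members are named, and list genes were named as the up to 4 called genes of each list with the largest change. Alternatives covered normalization, filters, the batch term, a replicate block, the groups fitted, unfiltered barcodes and each sample left out. The genes of 1 pathway list enter the counts over all lists and are not reported here by name.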

Additional observations from a re-analysis of the deposited data

Results flagged for a closer look

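For 2 genes the change from young to CASIN differed between HSC-1-like cells and progenitors in a test of that difference (limma, on log2(CPM + 1), HSC-1-like less the mean of MPP3-like and LMPP-like cells, batch as a term). The difference was 1.006 for Cdc42ep4 (adjusted p = 0.044, limma), with the 3 CASIN values at 0.96, 0.66 and 1.83 and the 3 young values at -0.38, 0.07 and 0.73. It was -0.5923 for Cdc42se2 (adjusted p = 0.044, limma), with the CASIN values at -0.63, -0.76 and -0.89 and the young values at 0.02, -0.15 and -0.36. The classes compared were chosen after their values had been seen. Between aged and young neither passed (0.90 and -0.54, adjusted p = 0.14 for both, limma). With single samples left out, Cdc42ep4 passed in 0 of 9 fits and Cdc42se2 in 1 of 9.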

How the results depend on the processing

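The number of the 10 members called between aged and young in all LSK cells, 1, was 0 without the batch term, 0 with the replicate block, 0 with only the 2 groups fitted and 3 in batch 1 alone, and 0 to 1 with single samples left out. Between CASIN and young, 1 became 2 with DESeq2, 3 with no low-count filter, 0 without the batch term, 0 with the replicate block, 2 with only those groups, 2 with all barcodes, 3 with fixed class makeup, 3 in batch 1 and 2 in batch 2, and 0 to 2 with single samples left out. The fits within 1 batch were chosen after seeing the data, and some arms there are 1 library: aged in batch 1, and young and CASIN in batch 2. Their calls assume that a lone library varies like the other groups, and between CASIN and young in batch 2 they compare 2 libraries, not the conditions. The Cdc42 difference between CASIN and young, -0.01, became 0.0017 with a mitochondrial limit of 5%, 0.026 with fixed class makeup and 0.055 in batch 2, and ran from -0.046 to 0.0077 with single samples left out.

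Pairs of a member and a class called between aged and young, 3, numbered 1 with DESeq2, 0 without the batch term, 0 with the replicate block and 1 in batch 2, and 1 to 3 with single samples left out. Between CASIN and young, 8 became 5, 0, 0 and 1 under the same settings, and 4 to 10. Pathway genes between aged and young, 6, numbered 10 with DESeq2, 11 with no low-count filter, 0 without the batch term, 0 with the replicate block, 0 with only the 2 groups, 10 with all barcodes and 37 in batch 1 (1 aged library), and 0 to 10 with single samples left out. Between CASIN and young, 8 became 18, 16, 0, 0 and 29 under the first 5 of these, 3 with a mitochondrial limit of 5% and 33 in batch 1, and 0 to 21. Between CASIN and aged, 0 became 1 in batch 2, where CASIN is 1 library. Members called between batches, 7, ran from 5 to 8 with single samples left out. The share of all genes called under each setting is not given beside the counts of this section, so they are not particular to the members or lists. The cause of these changes was not tested.

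Same-numbered samples correlated at -0.772 to 0.956 in their deviations from the group means, with 7 of 9 pairs over 0.1, but samples of the same batch correlated at 0.775 to 0.956 and those of different batches at -0.946 to -0.737, whatever their number, and the labels give the numbers no shared origin. The numbers were therefore not taken to pair the samples. Of 663 alternative values of single called genes, 434 stayed past the threshold, 229 did not, and 0 changed sign. These include the genes called between the batches, of which Iqgap1, Cdc42bpa, Cdc42se1 and Cdc42se2 stayed past it in 16 of 16 settings. Calls between conditions held less often than the total shows. Low counts limit Cdc42bpb and Cdc42ep4, with 65 to 378 and 64 to 367 UMIs per sample.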

Other observations

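Classes with too few cells for a fit, and clusters with no name, were summed over the 9 samples, with exact Poisson intervals at 95% that cover counting error only. The sums mix both batches, between which Iqgap1 and Cdc42bpa differed as given above. Cdc42 was at 682 CPM (639 to 727) in the 92 MP-2-like cells, led by Ly6c2 and Lgals3. Iqgap1 in the same cells was at 389.6 CPM (357 to 424). Cdc42ep4 was at 14.8 CPM (9.07 to 22.9) in them and at 13.6 CPM (7.80 to 22.2) in the 84 MP-3-like cells, led by Elane. Pooled in the same way, HSC-1-like cells had Cdc42ep4 at 12.4 CPM (11.3 to 13.6), Cdc42bpa at 37.4 CPM (35.5 to 39.4) and Cdc42bpb at 15.2 CPM (14.0 to 16.5). The MP-3-like cells were shallow, with a median of 2536 UMIs per cell. An unnamed cluster of 727 cells, led by Cxcl12, Gm42418 and Gm26917, had Cdc42bpa at 51.2 CPM (45.6 to 57.3), Cdc42bpb at 13.0 CPM (10.3 to 16.2) and Iqgap1 at 343 CPM (328 to 358). Its cells had a median of 7186 UMIs and a median mitochondrial share of 5.65%, the highest of the clusters, so they may be of lower quality, which was not tested. An unnamed cluster of 725 cells, led by Cox6a2, Dntt and Ly6d, of which Dntt marks early lymphoid cells, had low levels of the MRCK kinases and Cdc42ep4: Cdc42bpa at 5.87 CPM (4.54 to 7.47), Cdc42bpb at 0.890 CPM (0.427 to 1.64) and Cdc42ep4 at 1.25 CPM (0.681 to 2.09).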
